A study of Homo sapiens with 15 samples.

Results

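The genes described here encode protein factors of pre-mRNA splicing. They were chosen by name, as protein-coding genes of the SRSF, HNRNP, SF3A and SF3B, SNRP, PRPF and U2AF series. The rule used no expression value, but it was set with earlier results of these data known. This gave 76 genes of the 58676 in the count table, namely 12 SR protein genes, 26 hnRNP genes, 9 SF3A and SF3B genes, 12 SNRP genes, 13 PRPF genes and 4 U2AF genes. They were followed by sequencing of total RNA in PATU-8988T, a long-used human cell line that came from a pancreatic cancer. Cells were treated with 100 nM THZ1 for 4 h, 100 nM THZ1 for 24 h, 100 nM YKL-5-124 for 4 h or 100 nM YKL-5-124 for 24 h, and control cells received 0.1% DMSO. Each of these 5 groups had 3 libraries. No time is given for DMSO, so its 3 libraries stood as control for 4 h and for 24 h alike, and all comparisons with DMSO share them. Whether the numbered replicates were separate cultures is not said. The p-values therefore cover the spread among these samples alone, which may be technical. All libraries come from 1 cell line and 1 dose of each compound.

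THZ1 and YKL-5-124 are covalent inhibitors of CDK7, the kinase of the transcription factor TFIIH. THZ1 is also known to inhibit CDK12 and CDK13, which act on elongating RNA polymerase II, whereas YKL-5-124 was described as more selective for CDK7. Splicing removes introns from pre-mRNA in the spliceosome, which is built from small nuclear ribonucleoproteins (snRNPs). U2AF reads the 3′ splice site and brings in the U2 snRNP, whose SF3A and SF3B subunits hold the branch site. Sm proteins form a ring on the spliceosomal RNAs, and PRPF proteins act mainly in and around the U4/U6.U5 tri-snRNP. SR proteins bind exonic enhancers and mostly favour exon inclusion, while hnRNPs bind nascent RNA and often act against them. Gene counts do not separate the transcripts of a gene, and no splicing event was measured here.

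Libraries held 15567057 to 22869590 counts, of which 231257 to 515209 lay in the 76 genes. Of these genes, 68 passed the filter on low counts: 11 SR protein, 21 hnRNP, 9 SF3A and SF3B, 11 SNRP, 13 PRPF and 3 U2AF genes. The 8 genes left out were SRSF12 with 81 counts in all libraries together, U2AF1L4 with 104, SNRPN with 2, and HNRNPCL1 to HNRNPCL4 and the read-through gene HNRNPUL2-BSCL2, which had 0. Of 8 ductal and epithelial markers, KRT8 was at 167 to 199 and KRT18 at 156 to 169.7 RPKM in DMSO cells. RPKM is the normalized count per kilobase of exon, for markers on library totals. KRT19 was listed at 0 in DMSO, KRT7 at 0.179 to 0.238, CDH1 at 0.0396 to 0.0552 and MUC1 at 0.0103 to 0.0208 RPKM. Only 3 of the 8, KRT8, KRT18 and EPCAM, exceeded 1 RPKM in every DMSO library. Of the acinar, islet and liver markers, 5 of 6 had 0 counts in all libraries. In DMSO, immune markers reached at most 0.0775 RPKM and stromal markers at most 0.315 RPKM. Over all libraries the highest were LYZ at 2.61 RPKM, in YKL-5-124 24 h replicate 1, among the immune markers and COL3A1 at 0.503 RPKM among the stromal ones; their part in the results was not tested. In bulk RNA, fewer cells expressing a gene and less RNA of it per cell cannot be told apart.

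The 76 genes together took 1.52% ± 0.0309 of all counts at 24 h of THZ1 and 2.34% ± 0.0749 at its 4 h. With YKL-5-124 they took 1.98% ± 0.0108 at 24 h and 2.16% ± 0.0238 at 4 h, and in DMSO 2.26% ± 0.0318 (SD, n = 3 libraries each). The libraries with 24 h of THZ1 lay below all others. In each comparison but THZ1 4 h the treated and DMSO libraries did not overlap, and the exact two-sided permutation test then gave p = 0.1, the smallest p that 3 against 3 libraries allow. For THZ1 4 h the same exact permutation test gave p = 0.2. Ribosomal protein transcripts changed in share as well, upward at 24 h of THZ1, where the share of the splicing factor genes was lowest. At 24 h of YKL-5-124 they took 6.52% to 8.71% of counts, below DMSO. They took 20.8% to 23.1% of counts after 24 h of THZ1, against 9.04% to 11.6% in DMSO, and mitochondrially encoded transcripts took 3.46% to 4.44%, against 0.862% to 1.25% in DMSO. With both classes left out of the totals, the share of the splicing factor genes was 2.06% at 24 h of THZ1, against 2.56% in DMSO. At 4 h of THZ1 this share was 2.73% ± 0.0416, with no overlap with DMSO (exact permutation test, p = 0.1). The TMM factors, which correct for such changes in make-up, were 0.532 to 0.559 after 24 h of THZ1 and 1.15 to 1.27 in DMSO. What part the change in make-up has in the results below was not tested. It makes the choice of scaling matter: dividing by library totals instead lowers the median log2 change of all genes by 24 h of THZ1 by 1.13, and DESeq2's size factors raise it by 0.32. With library totals THZ1 4 h shifts by −0.25, YKL-5-124 24 h by 0.14. Values below are CPM, the usual normalized counts scaled with the TMM factors, and calls are genes with an adjusted p under 0.05 in edgeR's quasi-likelihood test, adjusted by Benjamini-Hochberg over 14461 genes. For genes named below as rising, falling or differing, a call that library totals take away or turn is given beside the value.

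After 24 h of THZ1 the splicing factor genes were split: 24 of the 68 tested rose and 32 fell relative to DMSO. Over all genes tested 32.3% rose and 44.0% fell, so the number of changed genes was close to that of the transcriptome. Their median log2 change was −0.21, and that of all genes −0.37. Under library totals 7 genes rose and 51 fell, where the median log2 change of all genes was −1.49. Shares of all genes, here and below, are for TMM scaling alone. By family under TMM scaling, SR protein genes fell in 9 of 11 cases, with a median of −1.87, whereas hnRNP genes rose in 10 and fell in 8 of 21 cases, with a median of 0.13. SNRP genes rose in 5 and fell in 3 of 11, SF3A and SF3B genes rose in 3 and fell in 5 of 9, PRPF genes rose in 3 and fell in 7 of 13, and U2AF genes rose in 2 of 3. Changes of at least 2-fold were called for 13 genes that rose and 20 that fell. No share of all genes was taken at this limit. Under library totals the family medians were −2.99 for SR, −0.99 for hnRNP, −0.93 for SNRP, −1.37 for SF3A and SF3B, −1.43 for PRPF and −0.48 for U2AF genes, so all 6 were then negative and the SR median remained the lowest. The 7 genes called higher under TMM, DESeq2's size factors in edgeR, library totals and DESeq2 alike were HNRNPA2B1, HNRNPA3, HNRNPC, HNRNPH3, SNRPC, SNRPD2 and U2AF2. The genes called lower under all 4 numbered 25, of which 8 were SR protein genes.

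**Figure D1:**
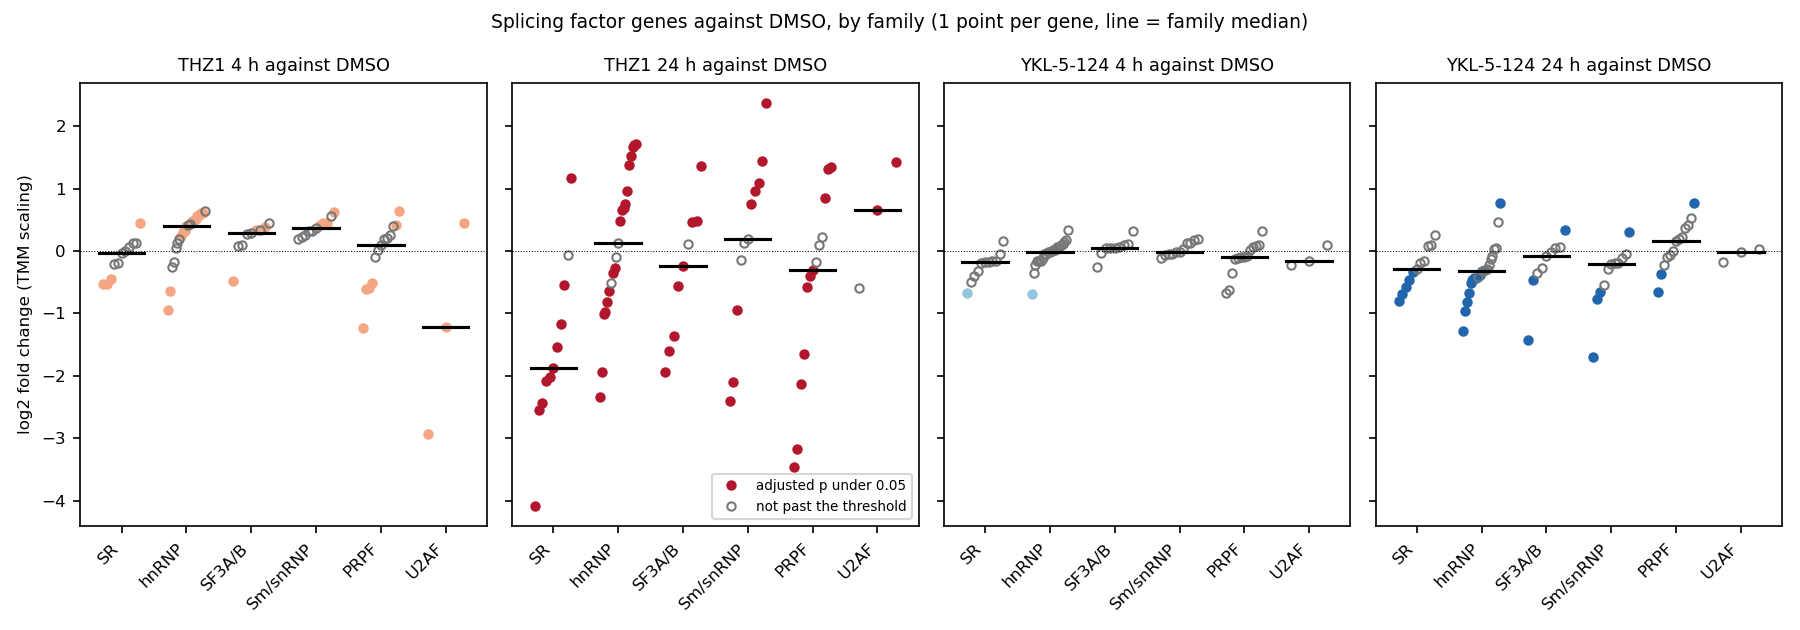
Log2 fold change against DMSO (vertical axis) of the 68 splicing factor genes tested, by family, in each of the 4 comparisons under TMM scaling. Each point is 1 gene, filled where its adjusted p is under 0.05, and the line is the family median; after 24 h of THZ1 the SR median stands at −1.87 and the hnRNP median at 0.13 (−2.99 and −0.99 under library totals).

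SRSF3 had the largest fall of all members. SRSF3 (ENSG00000112081, chromosome 6, 36594353 to 36605600, plus strand, GRCh38) encodes the smallest classical SR protein, which acts in splicing, polyadenylation site choice and mRNA export. Its level was 45.4, 46.1 and 38.0 CPM after 24 h of THZ1, against 800.1, 616 and 773 CPM in DMSO. Every library with 24 h of THZ1 lay more than 10 times below every DMSO library. The log2 change was −4.08 ± 0.16 (SE; adjusted p = 1.14e-11, edgeR quasi-likelihood test) and −5.20 under library totals. After 4 h of THZ1 it was at 651, 575 and 679.8 CPM, which overlapped DMSO, and the log2 change of −0.20 did not pass (adjusted p = 0.27; −0.46 and called under library totals). With YKL-5-124 the level was 589, 474 and 493 CPM at 4 h and 505, 482 and 370.5 CPM at 24 h. At 24 h all 3 were below DMSO, with a log2 change of −0.69 ± 0.14 (adjusted p = 0.00278), whereas the 4 h difference of −0.49 did not pass (adjusted p = 0.157; 0.0363 with no filter on low counts).

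SRSF1 and SRSF2 are the founding SR proteins, SRSF1 being also called ASF/SF2 and SRSF2 SC35. SRSF1 (chromosome 17, 58003360 to 58007346, minus strand) was at 15.8, 19.2 and 22.2 CPM after 24 h of THZ1, against 116, 100.0 and 117 CPM in DMSO, a log2 change of −2.54 ± 0.13 (adjusted p = 1.28e-10). After 24 h of YKL-5-124 it stood at 67.0, 64.4 and 59.1 CPM, again below all DMSO libraries, with a log2 change of −0.81 ± 0.12 (adjusted p = 3.03e-04), the largest fall of an SR protein gene with that compound. SRSF2 was at 38.2, 43.1 and 39.7 CPM after 24 h of THZ1, at 109, 112 and 108 CPM after 24 h of YKL-5-124, and at 165, 168 and 155 CPM in DMSO. Its groups did not overlap, and the log2 changes were −2.01 ± 0.10 with THZ1 (adjusted p = 1.09e-10) and −0.57 ± 0.10 with YKL-5-124 (adjusted p = 7.72e-04). At 4 h neither gene passed the test with either compound. Reads of SRSF2 may include those of MFSD11 on the other strand, because no source used here gives the strand setting of the counting.

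SRSF4 and SRSF6 fell with THZ1 at both times. SRSF4, an SR protein with a long serine and arginine rich tail, was at 49.5, 67.4 and 53.1 CPM after 4 h and 12.9, 16.2 and 13.7 CPM after 24 h of THZ1, against 73.4, 79.8 and 78.9 CPM in DMSO. After 24 h of YKL-5-124 it was at 86.3, 92.6 and 97.4 CPM, above all DMSO libraries, but the log2 difference of 0.25 did not pass (adjusted p = 0.158). SRSF6, its close relative, was at 239, 232 and 248 CPM after 4 h and 83.8, 82.9 and 78.8 CPM after 24 h of THZ1, against 386, 285 and 364 CPM in DMSO. Both genes were lower than DMSO in all 6 THZ1 libraries, with log2 changes of −2.44 and −2.08 at 24 h. SRSF6 was also 1 of the 2 members that fell after 4 h of YKL-5-124. SRSF8, SRSF10, SRSF5 and SRSF11 fell after 24 h of THZ1 by 1.87, 1.54, 1.17 and 0.54 on the log2 scale, the SRSF11 call being lost with DESeq2's size factors in edgeR. SRSF8 also fell after 4 h of THZ1, with a log2 change of −0.53 ± 0.12 (adjusted p = 0.00268, edgeR quasi-likelihood test). That was the largest fall of an SR protein gene at that time.

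SRSF9 went the other way. This SR protein gene (chromosome 12, 120461668 to 120469793, minus strand) encodes a member with a very short serine and arginine rich tail. It was at 460.0, 437 and 429.5 CPM after 24 h of THZ1, against 209.8, 170.2 and 209 CPM in DMSO, with no overlap. The log2 change was 1.17 ± 0.11 (adjusted p = 1.25e-07) under TMM and 0.05, no longer called, under library totals. At 4 h of THZ1 it was at 301, 249 and 254 CPM, a log2 change of 0.45 ± 0.11 (adjusted p = 0.00441, not called under library totals). With YKL-5-124 its differences of 0.16 at 4 h and 0.10 at 24 h did not pass. SRSF7, the closest relative of SRSF3, was at 253, 231 and 220.3 CPM after 24 h of THZ1, against 273, 210.0 and 256 CPM in DMSO, groups that overlapped (log2 −0.07, adjusted p = 0.617). The ratio of SRSF9 to SRSF3 per exonic length, which does not depend on the scaling of the library, was 0.803 ± 0.0862 at 4 h and 19.6 ± 1.77 at 24 h of THZ1, 0.892 ± 0.0771 at 24 h of YKL-5-124 and 0.513 ± 0.0135 in DMSO (SD, n = 3 each). The lowest ratio with 24 h of THZ1 was thus far above the highest in any other group. As a share of all SR protein RNA per length, SRSF9 made up 45.6% ± 0.331 after 24 h of THZ1 and 11.0% ± 0.268 in DMSO, while SRSF3 made up 2.34% ± 0.190 after THZ1 and 21.5% ± 0.779 in DMSO. GATC overlaps SRSF9 on the other strand, with the same limit as for SRSF2. The limit also holds for other members that share bases with a gene on the opposite strand, among them SRSF1, PRPF31, PRPF39, SF3A2, SNRPA, SNRPD2, SNRPD3, HNRNPA2B1, HNRNPH3, HNRNPLL, HNRNPM and HNRNPUL1.

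**Figure D2:**
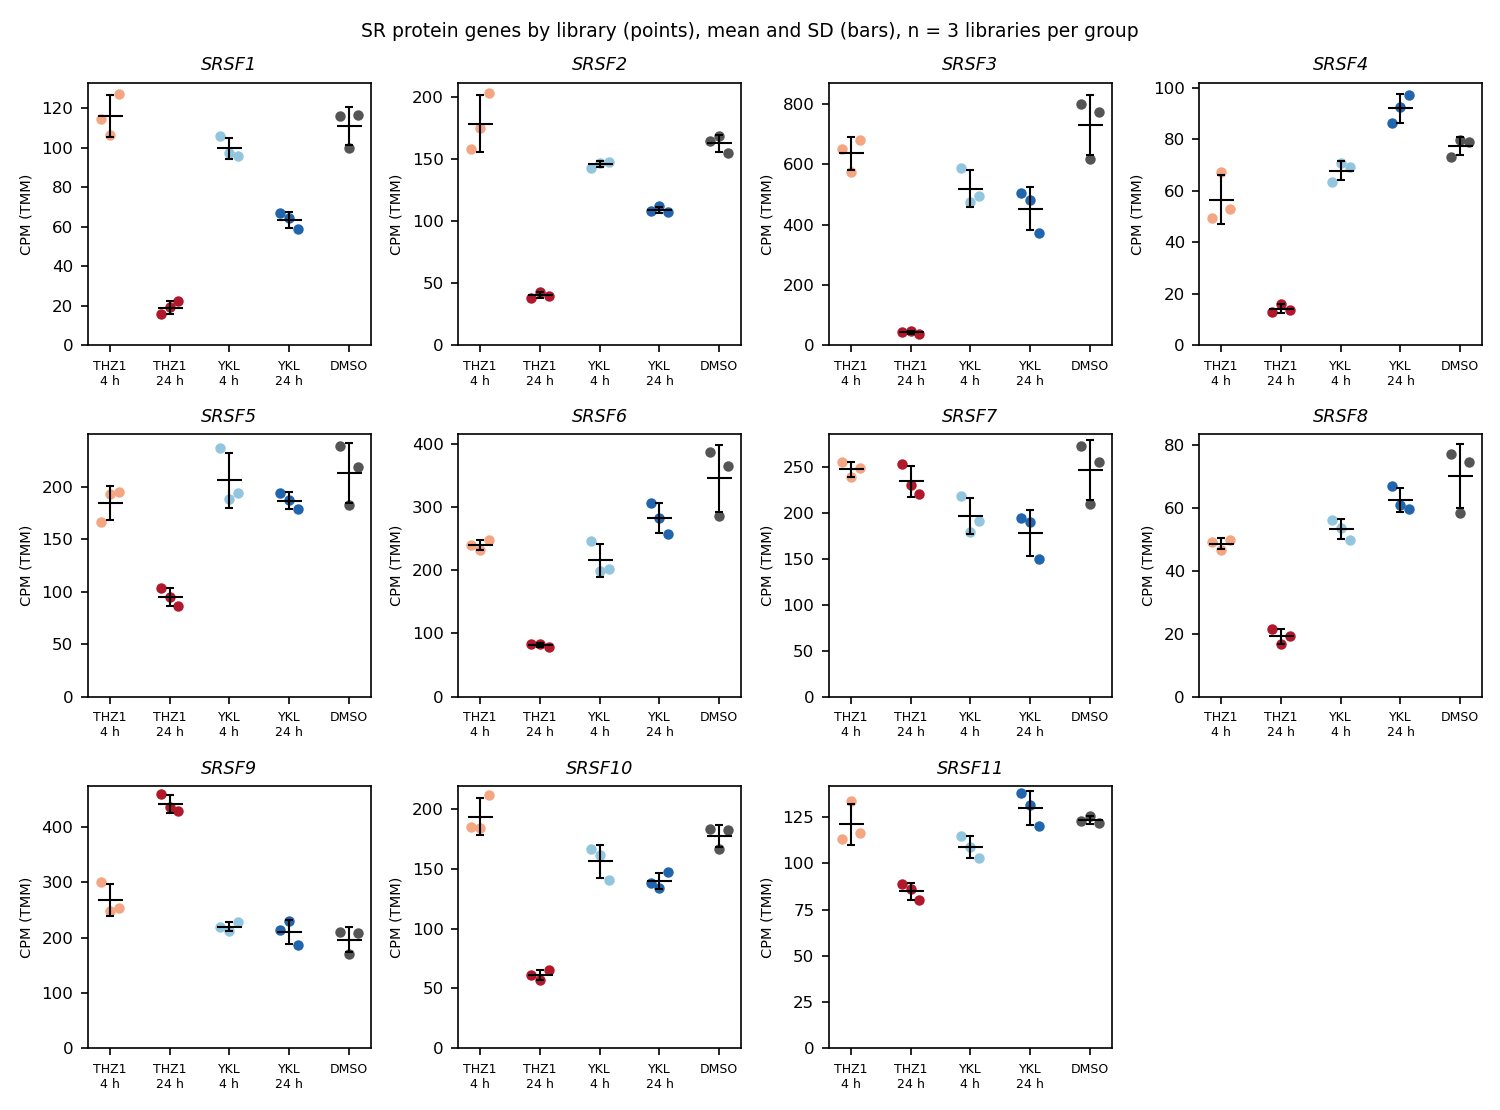
Level of the 11 SR protein genes tested in CPM (vertical axis, 1 panel per gene) in each library. Points are libraries and bars the mean ± SD of 3; SRSF3 lies at 38.0 to 46.1 CPM after 24 h of THZ1 and at 616 to 800.1 CPM in DMSO, while SRSF9 lies at 429.5 to 460.0 CPM after 24 h of THZ1 and at 170.2 to 209.8 CPM in DMSO (SRSF9 is not called under library totals).

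The bases upstream of 3 SR protein genes that fell and of SRSF9, which rose, are shown next, with HNRNPC as a gene outside the family that rose. The genes were picked after their values were seen, to set promoters of genes that moved apart beside each other. Sequences are RefSeq's for GRCh38.p14, written 5′ to 3′ on the strand of the gene, and are those of RefSeq's 250 upstream bases that lie before the gene as the count table spans it. The SRSF6 stretch ends at RefSeq's start, a little upstream of the gene in the count table. They lie at chr6:36594112-36594352 on the plus strand for SRSF3, chr17:58007347-58007496 on the minus strand for SRSF1, chr20:43457646-43457895 on the plus strand for SRSF6, chr12:120469794-120469998 on the minus strand for SRSF9 and chr14:21269495-21269692 on the minus strand for HNRNPC. Capitals mark exact matches, on either strand, to the letters CCAAT of a CCAAT box, the letters TATAAA of a TATA box or the letters GGGCGG of a GC box.
SRSF3: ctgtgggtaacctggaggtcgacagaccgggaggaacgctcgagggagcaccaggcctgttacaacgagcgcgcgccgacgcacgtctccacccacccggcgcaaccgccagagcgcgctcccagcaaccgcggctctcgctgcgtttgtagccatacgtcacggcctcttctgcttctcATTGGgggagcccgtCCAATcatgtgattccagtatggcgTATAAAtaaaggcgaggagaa
SRSF1: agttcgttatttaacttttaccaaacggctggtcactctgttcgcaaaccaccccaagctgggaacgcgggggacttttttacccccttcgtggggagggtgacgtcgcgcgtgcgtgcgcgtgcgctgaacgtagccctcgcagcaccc
SRSF6: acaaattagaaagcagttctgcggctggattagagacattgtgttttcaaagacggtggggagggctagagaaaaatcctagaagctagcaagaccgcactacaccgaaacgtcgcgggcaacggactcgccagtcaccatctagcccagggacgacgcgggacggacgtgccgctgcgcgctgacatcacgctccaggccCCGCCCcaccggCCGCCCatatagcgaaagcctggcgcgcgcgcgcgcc
SRSF9: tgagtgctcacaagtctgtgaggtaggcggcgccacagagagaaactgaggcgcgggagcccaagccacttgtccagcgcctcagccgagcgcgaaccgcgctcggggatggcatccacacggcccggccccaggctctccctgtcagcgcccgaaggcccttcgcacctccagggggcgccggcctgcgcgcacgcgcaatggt
HNRNPC: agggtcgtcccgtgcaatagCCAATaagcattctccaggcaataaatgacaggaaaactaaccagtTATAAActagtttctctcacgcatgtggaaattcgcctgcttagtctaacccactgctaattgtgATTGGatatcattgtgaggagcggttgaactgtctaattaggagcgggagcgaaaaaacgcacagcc

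The SRSF3 stretch has a TATAAA starting 30 bases upstream of RefSeq's start and CCAAT letters, once on each strand, starting 70 and 55 bases upstream. SRSF6 has the GC box letters GGGCGG on the minus strand at 49 and 37 bases upstream, and SRSF1 and SRSF9 hold none of the 3 motifs in the bases shown. HNRNPC has CCAAT letters at 230 and 119 and TATAAA at 184 bases upstream. G and C made up 61.8% of the SRSF3 stretch, 70.2% of the SRSF9 stretch and 44.9% of the HNRNPC stretch. Of the 76 genes, 66 matched a promoter in the table by name. Within 250 bases upstream, on both strands, the CCAAT letters were found in 33 of these 66 and in 32.0% of all 35116 RefSeq windows. Members were counted by gene and the background by window, over promoters not limited to the genes tested. These shares are therefore not like for like, and enrichment was not tested. GGGCGG was found in 39 of 66 and 42.6% of windows, TATAAA in 7 and 10.7%, and the ETS motif CCGGAAGT in 14 and 3.42%. Among matched genes that rose after 24 h of THZ1, 12 of 22 had CCAAT letters and 5 had the ETS motif, against 12 of 26 and 7 of 26 among those that fell. A match describes letters and is no binding site.

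Within the hnRNP genes, members of the A/B group and of the H/F group moved both ways after 24 h of THZ1. In the A/B group HNRNPA2B1, a reader of RNA that also sorts miRNAs and mRNAs, rose most. HNRNPA2B1 (chromosome 7, 26189927 to 26201529, minus strand) was at 3811, 4364 and 4159 CPM after 24 h and 1749, 1984 and 2015 CPM after 4 h of THZ1, against 1215, 1277 and 1269 CPM in DMSO. Neither time overlapped DMSO, and the log2 changes were 1.71 ± 0.09 (adjusted p = 2.00e-10; 0.58 and still called under library totals) and 0.61 ± 0.09 (adjusted p = 6.61e-05). With YKL-5-124 it was at 1291, 1313 and 1320.2 CPM at 4 h and 1274, 1232 and 1358 CPM at 24 h, and neither difference passed. CBX3 overlaps it on the other strand. HNRNPA3 rose by 1.52 ± 0.15 on the log2 scale, while HNRNPA0 fell by 0.65 and HNRNPAB by 0.27 (the HNRNPAB value turned to 0.05 with DESeq2's size factors).

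HNRNPA1 moved in opposite directions with the compounds. It encodes the most abundant hnRNP, an antagonist of SRSF1 at many splice sites, and had 349 RPKM in DMSO, 1 of the highest levels per length among the members. HNRNPA1 (chromosome 12, 54280193 to 54287088, plus strand) was at 705, 726 and 756 CPM after 24 h of YKL-5-124, against 1721, 1843 and 1762 CPM in DMSO. All YKL-5-124 libraries were below all DMSO libraries, with a log2 change of −1.28 ± 0.11 (adjusted p = 3.15e-06), called under all scalings. After 24 h of THZ1 it was at 2410.1, 3026 and 2989 CPM, a log2 change of 0.66 ± 0.11 (adjusted p = 4.25e-05) under TMM that turned to −0.47 under library totals. At 4 h it was at 2325, 2739 and 2843 CPM with THZ1 (log2 0.57 ± 0.11, adjusted p = 5.81e-04, not called under library totals) and at 1699, 1852 and 1863 CPM with YKL-5-124, which overlapped DMSO. Its level after 24 h of YKL-5-124 was thus the lowest of the 5 groups, and the THZ1 groups at 4 h and 24 h overlapped each other.

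HNRNPC and HNRNPH3 rose with 24 h of THZ1. HNRNPC, whose product packages nascent RNA and keeps U2AF from cryptic sites, was at 4601, 3986 and 3805 CPM, against 1464, 931 and 1421 CPM in DMSO, a log2 change of 1.70 ± 0.22 (adjusted p = 4.25e-06; 0.58 under library totals). HNRNPH3, a member of the H/F group that binds G-rich runs, was at 418, 446 and 426 CPM after 24 h of THZ1 and at 86.3, 87.9 and 80.1 CPM after 24 h of YKL-5-124, against 161, 170.2 and 166 CPM in DMSO. Its 3 groups did not overlap, and the log2 changes were 1.38 ± 0.08 with THZ1 (adjusted p = 6.65e-10) and −0.97 ± 0.08 with YKL-5-124 (adjusted p = 3.15e-06). HNRNPF of the same group fell to 157, 122 and 133 CPM after 24 h and 407, 302 and 305 CPM after 4 h of THZ1, against 592, 419 and 568 CPM in DMSO. HNRNPDL, an hnRNP D relative, fell to 77.9, 74.0 and 73.4 CPM after 24 h of THZ1, against 402, 353 and 383 CPM in DMSO, a log2 change of −2.34 ± 0.11 (adjusted p = 4.19e-11). Every THZ1 library at 24 h was below every DMSO library for HNRNPF and HNRNPDL. Within a library the ratio of HNRNPA2B1 to HNRNPDL per length was 39.8 ± 3.82 after 24 h of THZ1 and 2.41 ± 0.216 in DMSO (SD, n = 3 each).

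Among the Sm and snRNP protein genes the largest changes of both signs lay within the Sm ring. SNRPD1 and SNRPD2 encode SmD1 and SmD2, which sit side by side in that ring. SNRPD2 (chromosome 19, 45687454 to 45692569, minus strand) was at 1357, 1166 and 1028 CPM after 24 h of THZ1, against 263, 172 and 254 CPM in DMSO, a log2 change of 2.37 ± 0.23 (adjusted p = 1.31e-07; 1.25 under library totals). SNRPD1 (chromosome 18, 21612267 to 21633524, plus strand) was at 47.7, 53.3 and 51.0 CPM after 24 h of THZ1, against 276, 241 and 283 CPM in DMSO, a log2 change of −2.40 ± 0.12 (adjusted p = 6.57e-11). Both genes were without overlap, in opposite directions, and their ratio per length was 71.7 ± 13.4 after 24 h of THZ1 and 2.61 ± 0.384 in DMSO (SD, n = 3 each). SNRPD2 made up 34.8% ± 0.701 of SNRP RNA per length after 24 h of THZ1. QPCTL overlaps SNRPD2 on the other strand. At 4 h neither passed with either compound. Of the other Sm genes SNRPF rose by 1.09, SNRPE by 0.96 and SNRPD3 by 0.75 on the log2 scale after 24 h of THZ1, which turned to −0.04, −0.17 and −0.38 under library totals, and SNRPG fell by 0.95. SNRPB, the gene of SmB/B′ and with 352 RPKM the highest member per length in DMSO, was at 617, 466 and 460.0 CPM after 24 h of THZ1, against 514, 326 and 509 CPM in DMSO, which overlapped (log2 0.19, adjusted p = 0.44; −0.93 under library totals).

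Of the snRNP-specific genes, SNRPA and SNRPA1 differed between the compounds at 24 h. SNRPA encodes the A protein of the U1 snRNP, which binds a stem loop of U1 RNA, and SNRPA1 encodes the A′ protein of the U2 snRNP. SNRPA (chromosome 19, 40750637 to 40765389, plus strand) was at 17.6, 19.0 and 18.7 CPM after 24 h of YKL-5-124, against 64.4, 57.7 and 57.6 CPM in DMSO, a log2 change of −1.70 ± 0.12 (adjusted p = 6.76e-07). This was the largest fall of any member with YKL-5-124. With 24 h of THZ1, SNRPA was at 61.5, 53.3 and 48.0 CPM, overlapping DMSO (log2 −0.14, adjusted p = 0.258). SNRPA1 (chromosome 15, 101281510 to 101295282, minus strand) was at 19.2, 16.7 and 16.5 CPM after 24 h of THZ1 and at 99.8, 89.2 and 89.3 CPM after 24 h of YKL-5-124, against 77.3, 70.6 and 76.8 CPM in DMSO. The groups did not overlap, with log2 changes of −2.10 ± 0.11 for THZ1 (adjusted p = 1.34e-10) and 0.31 ± 0.10 for YKL-5-124 (adjusted p = 0.0392, lost when any of 7 single libraries is left out, at 0.25 to 0.34, and with no filter on low counts, at an adjusted p of 0.225). SNRPC, the gene of the C protein of the U1 snRNP, rose by 1.43 ± 0.17 on the log2 scale after 24 h of THZ1. SNRPB2, also snRNP-specific, was called against DMSO at 24 h with neither compound under TMM scaling.

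**Figure D3:**
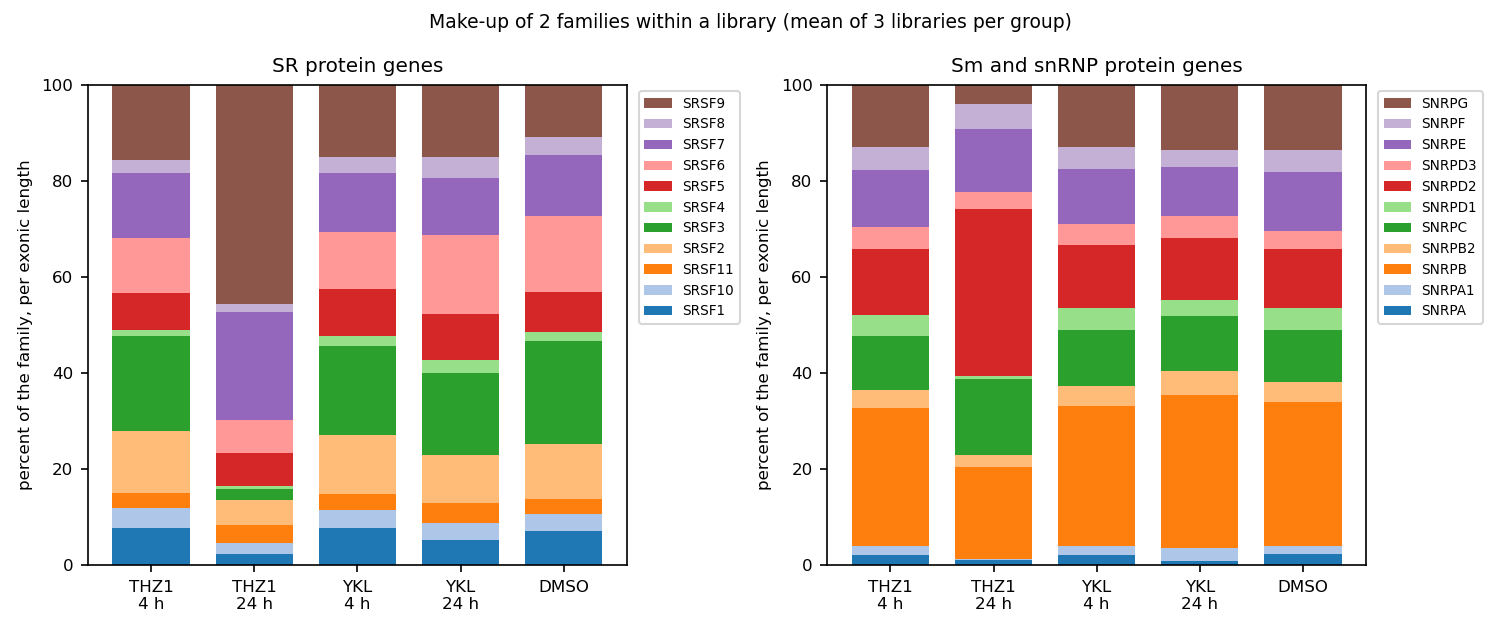
Percent of the family's RNA per exonic length (vertical axis) taken by each SR protein gene and each Sm and snRNP protein gene in the 5 groups, as means of 3 libraries. Colours are genes; after 24 h of THZ1 SRSF9 takes 45.6% of the SR total and SRSF3 2.34%, against 11.0% and 21.5% in DMSO, and SNRPD2 takes 34.8% of the SNRP total.

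SF3B3 was low after 24 h of both compounds. It encodes a large WD-repeat scaffold subunit of SF3B, and SF3B1 encodes the branch site subunit that is often mutated in cancers. SF3B3 (chromosome 16, 70523788 to 70577670, plus strand) was at 122, 113 and 119 CPM after 24 h of THZ1 and 153, 166 and 187 CPM after 24 h of YKL-5-124, against 496, 436 and 426 CPM in DMSO. All 6 treated libraries at 24 h were below all DMSO libraries, with log2 changes of −1.94 ± 0.10 (adjusted p = 1.73e-10) and −1.43 ± 0.10 (adjusted p = 8.62e-07). At 4 h it was at 445, 479 and 504 CPM with THZ1 and 359.9, 405 and 372 CPM with YKL-5-124, and neither difference from DMSO passed. SF3B1 (chromosome 2, 197389784 to 197435091, minus strand) was at 238, 254 and 246 CPM after 24 h of THZ1 and 449, 443 and 493 CPM after 24 h of YKL-5-124, against 361, 378 and 355 CPM in DMSO. Here the compounds lay on opposite sides of DMSO, with log2 changes of −0.57 ± 0.09 for THZ1 (adjusted p = 3.49e-05) and 0.34 ± 0.09 for YKL-5-124 (adjusted p = 0.0147). The YKL-5-124 call was lost without YKL-5-124 24 h replicate 3, DMSO replicate 1 or DMSO replicate 3, and with no filter on low counts (adjusted p = 0.0897). SF3B6, the gene of the small branch site protein p14, was at 462, 456 and 419 CPM after 24 h of THZ1, against 192, 135 and 194 CPM in DMSO (log2 1.36 ± 0.22, adjusted p = 3.72e-05; 0.24 and not called under library totals). SF3B4 was called lower at 4 h of THZ1 (log2 −0.49 ± 0.12) and higher at 24 h (log2 0.49 ± 0.12, turned to −0.65 under library totals). SF3A2 and SF3B5 fell by 1.60 and 1.37 on the log2 scale after 24 h of THZ1, and SF3A1 passed with neither compound.

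Among the PRPF genes PRPF4B, PRPF4 and PRPF3 fell with THZ1 at both times, while PRPF8 and PRPF31 rose at 24 h under TMM but not under library totals. PRPF4B encodes a kinase of the pre-catalytic spliceosome, and PRPF4 and PRPF3 encode partners in the U4/U6 snRNP. PRPF4B (chromosome 6, 4021267 to 4064983, plus strand) was at 8.70, 9.70 and 12.1 CPM after 24 h and 53.3, 98.3 and 82.7 CPM after 4 h of THZ1, against 102, 129 and 104 CPM in DMSO. All 6 THZ1 libraries were below all DMSO libraries, with log2 changes of −3.45 ± 0.21 (adjusted p = 5.99e-10) and −0.51 ± 0.18 (adjusted p = 0.0313; the 4 h call was not held under all scalings). PRPF4 (chromosome 9, 113275343 to 113292905, plus strand) was at 13.6, 11.5 and 12.4 CPM after 24 h and 76.4, 71.4 and 74.3 CPM after 4 h of THZ1, against 113, 106 and 117 CPM in DMSO. Its log2 changes were −3.16 ± 0.10 (adjusted p = 4.32e-12) and −0.60 ± 0.09 (adjusted p = 9.70e-05), and it overlaps CDC26 on the other strand. PRPF3 was at 12.7, 11.1 and 10.4 CPM after 24 h of THZ1 and at 86.2, 85.6 and 81.3 CPM after 24 h of YKL-5-124, against 50.8, 47.8 and 50.8 CPM in DMSO. It therefore lay on opposite sides of DMSO, with log2 changes of −2.13 ± 0.11 (adjusted p = 1.59e-10) and 0.76 ± 0.10 (adjusted p = 1.31e-04). PRPF38B, a relative of a factor that activates the spliceosome, was at 26.0, 36.7 and 31.2 CPM after 4 h and 17.9, 26.1 and 26.1 CPM after 24 h of THZ1, against 66.8, 83.1 and 71.2 CPM in DMSO. Its log2 change of −1.24 ± 0.15 at 4 h (adjusted p = 1.33e-05) was the largest fall at that time among members with a mean of at least 5 CPM. PRPF8, the gene of the scaffold at the catalytic centre, was at 494, 515 and 551 CPM after 24 h of THZ1, against 204, 241 and 184 CPM in DMSO (log2 1.31 ± 0.18, adjusted p = 7.74e-06; 0.18 and not called under library totals). The ratio of PRPF8 to PRPF4B per length was 35.9 ± 3.97 after 24 h of THZ1 and 1.30 ± 0.0810 in DMSO (SD, n = 3 each).

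The U2AF genes could be followed with confidence only for the large subunit. U2AF2 encodes U2AF65, which binds the polypyrimidine tract, and U2AF1 encodes U2AF35, which reads the AG. U2AF2 (chromosome 19, 55654146 to 55674715, plus strand) was at 877, 777 and 796 CPM after 24 h and 445, 432 and 378 CPM after 4 h of THZ1, against 291, 306 and 320.3 CPM in DMSO. All THZ1 libraries lay above all DMSO libraries, with log2 changes of 1.42 ± 0.10 (adjusted p = 3.93e-09; 0.29 and still called under library totals) and 0.45 ± 0.10 (adjusted p = 0.00184, not called under library totals). U2AF1 and U2AF1L5 are near-identical copies, so reads can be split between them or lost, and both are uncertain. U2AF1 had 3, 1 and 1 raw counts after 4 h of THZ1, against 23, 11 and 13 in DMSO. The ratio of the summed, scaled counts was 0.125 (exact binomial 95% interval 0.0388 to 0.313, counting error only). U2AF1L5 had 31, 14 and 26 counts after 4 h of THZ1, against 56, 72 and 66 in DMSO, a ratio of 0.430 (0.323 to 0.567). After 24 h of THZ1 the ratios to DMSO were 0.666 (0.321 to 1.27) for U2AF1 and 1.55 (1.22 to 1.96) for U2AF1L5, on TMM scaling. The U2AF1L5 rise turned to a log2 value of −0.48, not called, under library totals, and U2AF1 was then called lower, at −1.69 (adjusted p = 0.0035).

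**Figure D4:**
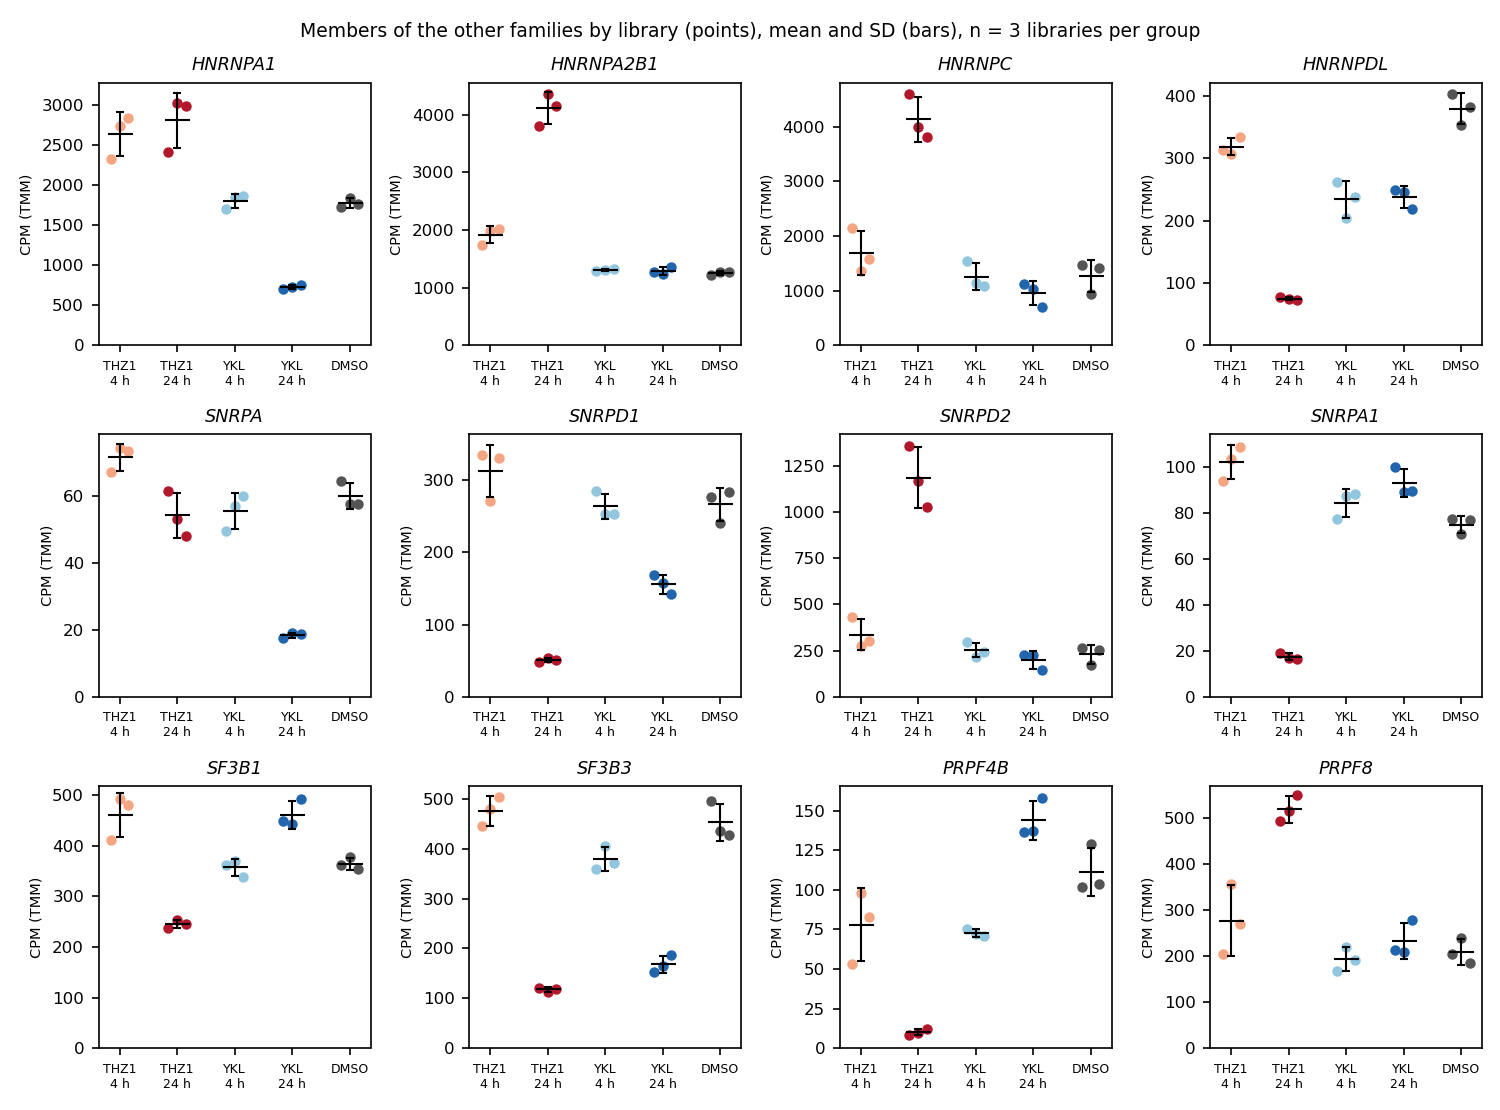
Level in CPM (vertical axis, 1 panel per gene) of 12 hnRNP, SNRP, SF3B and PRPF genes in each library of the 5 groups. Points are libraries and bars the mean ± SD of 3; SNRPD2 lies at 1028 to 1357 CPM after 24 h of THZ1 and 172 to 263 CPM in DMSO, and SNRPA at 17.6 to 19.0 CPM after 24 h of YKL-5-124 and 57.6 to 64.4 CPM in DMSO.

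The earlier THZ1 time gave 33 calls in the 68 genes at 4 h, where 42.0% of all genes were called: 21 rose and 12 fell, where 16.9% of all genes rose and 25.1% fell. Their median log2 change was 0.24, that of all genes 0.00. The hnRNP genes accounted for 11 of the 21 rises, with a family median of 0.40, while SR protein genes rose in 1 and fell in 3 of 11 cases with a median of −0.03. These small rises rested on the scaling: under library totals 3 genes were called higher, and HNRNPA2B1, HNRNPK and SNRPD3 were the 3 called higher under all 4 scalings. SNRPD3, the gene of SmD3, was at 175, 171 and 172 CPM after 4 h of THZ1, against 108, 111 and 118 CPM in DMSO, without overlap (log2 0.62 ± 0.08, adjusted p = 1.89e-05). PRPF31, a U4/U6 snRNP factor, rose by 0.63 ± 0.18 on the log2 scale, a call lost without THZ1 4 h replicate 3 and under library totals. Of the 12 falls, 11 were called under all scalings; library totals lower all values of this comparison, which works against rises and not against falls. Of the genes called at both times, 13 were higher at 4 h and at 24 h and 9 lower at both, 7 were higher at 4 h and lower at 24 h, among them SF3B1 and SNRPA1 (both 4 h calls lost under library totals), and 2 were lower at 4 h and higher at 24 h. These comparisons share the DMSO libraries. Joint counts over all genes were not taken, so the overlap cannot be set against the transcriptome.

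YKL-5-124 moved few of the genes at 4 h. In edgeR 2 of the 68 were called, where 0.519% of all genes were. Both fell and 0 rose, where 0.463% of all genes fell and 0.0553% rose, and 12 of the 68 had an unadjusted p under 0.05. HNRNPDL was at 263, 203 and 238 CPM, against 402, 353 and 383 CPM in DMSO (log2 −0.69 ± 0.10, adjusted p = 0.00601), and SRSF6 was at 246, 199 and 201 CPM, against 386, 285 and 364 CPM in DMSO (log2 −0.68 ± 0.12, adjusted p = 0.016). Both genes were below DMSO in all 3 libraries. The SRSF6 call was lost on leaving out any of 4 single libraries and that of HNRNPDL without YKL-5-124 4 h replicate 2, and DESeq2 gave 4 genes lower and 0 higher.

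By 24 h YKL-5-124 had changed 26 of the 68 genes, where 21.6% of all genes were called. Of the 68, 4 rose and 22 fell, where 8.92% of all genes rose and 12.7% fell. The falls thus made up a larger share of these genes than of the transcriptome, and the median log2 change was −0.20, that of all genes −0.04. Of the 22 falls, 10 were of hnRNP genes (family median −0.33) and 5 of SR protein genes (median −0.29), and 18 of the 22 were called under all scalings. Under library totals 10 genes rose and 18 fell. Under library totals the family medians were −0.17 and −0.13, and those of SF3A and SF3B and of U2AF genes were 0.07 and 0.14 in place of slightly negative values. HNRNPH1, the close relative of HNRNPH3, fell by 0.81 on the log2 scale and SNRPF by 0.65. PRPF39, a U1 snRNP factor, fell by 0.65 ± 0.13 (adjusted p = 0.00213). The 4 that rose were HNRNPLL, PRPF3, SF3B1 and SNRPA1. HNRNPLL, a regulator of exon skipping first studied in T cells, was at 129, 119 and 93.3 CPM, against 74.2, 54.0 and 72.1 CPM in DMSO, without overlap (log2 0.77 ± 0.18, adjusted p = 0.00676). Of the falls, 3 reached 2-fold, those of SNRPA, SF3B3 and HNRNPA1, a limit at which no share of all genes was taken.

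The compounds were compared directly at matched dose and time, in 68 genes at each time, with p adjusted over all genes. At 4 h, 24 genes were higher and 6 lower with THZ1 than with YKL-5-124, where 11.4% and 21.9% of all genes were. The median log2 difference was 0.29, that of all genes 0.01. HNRNPA2B1 was higher by 0.55 ± 0.09 (adjusted p = 2.32e-04), HNRNPA1 by 0.55 ± 0.11 and HNRNPA3 by 0.54 ± 0.14 (both 0.30 and not called under library totals), while PRPF38B (−0.56 ± 0.15), SF3B4 (−0.54 ± 0.12) and PRPF4 (−0.52 ± 0.09) were lower. The number higher was 3 under library totals, 13 without THZ1 4 h replicate 3, which ends the HNRNPA3 call, and 15 without YKL-5-124 4 h replicate 3. For 38 genes no difference was called at 4 h, PRPF38A being the narrowest case near 0 (0.00, 95% interval −0.21 to 0.21), and SRSF6, low with both, differed by 0.16 (−0.10 to 0.41).

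At 24 h, 29 genes were higher and 27 lower with THZ1 than with YKL-5-124, where 31.8% and 44.1% of all genes were. SNRPD2 (log2 2.57 ± 0.23, adjusted p = 5.51e-08), HNRNPH3 (2.34 ± 0.09, adjusted p = 6.56e-12) and HNRNPC (2.12 ± 0.22, adjusted p = 4.26e-07) were highest on the THZ1 side. PRPF4B (−3.82 ± 0.21, adjusted p = 2.38e-10), SRSF3 (−3.39 ± 0.16, adjusted p = 4.41e-11) and PRPF4 (−3.09 ± 0.10, adjusted p = 4.87e-12) were farthest on the YKL-5-124 side. SR protein genes were lower with THZ1 in 9 of 11 cases and higher in 2, SRSF9 and SRSF7, and these 2 were not called higher under library totals. Under library totals 10 genes were higher and 49 lower. For HNRNPD the difference was 0.04 (95% interval −0.20 to 0.28, adjusted p = 0.766). SNRPB differed by 0.39 (−0.09 to 0.87), which did not pass, but neither its size nor its sign was fixed. It was 0.70 and called with DESeq2's size factors in edgeR (adjusted p = 0.0124) and in DESeq2, 0.38 and called with the replicate block, and −0.89 and called under library totals. Read against the shared DMSO libraries at 24 h, 11 genes were lower with both compounds, among them SRSF1, SRSF2, SRSF3, SRSF10 (its YKL-5-124 call lost under library totals), SNRPD1 and SF3B3, and 0 were higher with both. A further 6 were higher with THZ1 and lower with YKL-5-124 (HNRNPA1, HNRNPH1, HNRNPH3, HNRNPK, HNRNPL and SNRPF), of which only HNRNPH3 was called higher with THZ1 under all scalings. PRPF3, SF3B1 and SNRPA1 were lower with THZ1 and higher with YKL-5-124, called so under all scalings, with the losses for SF3B1 and SNRPA1 given above. The same joint counts over all genes were not taken, so whether this overlap is particular to these genes was not tested.

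**Figure D5:**
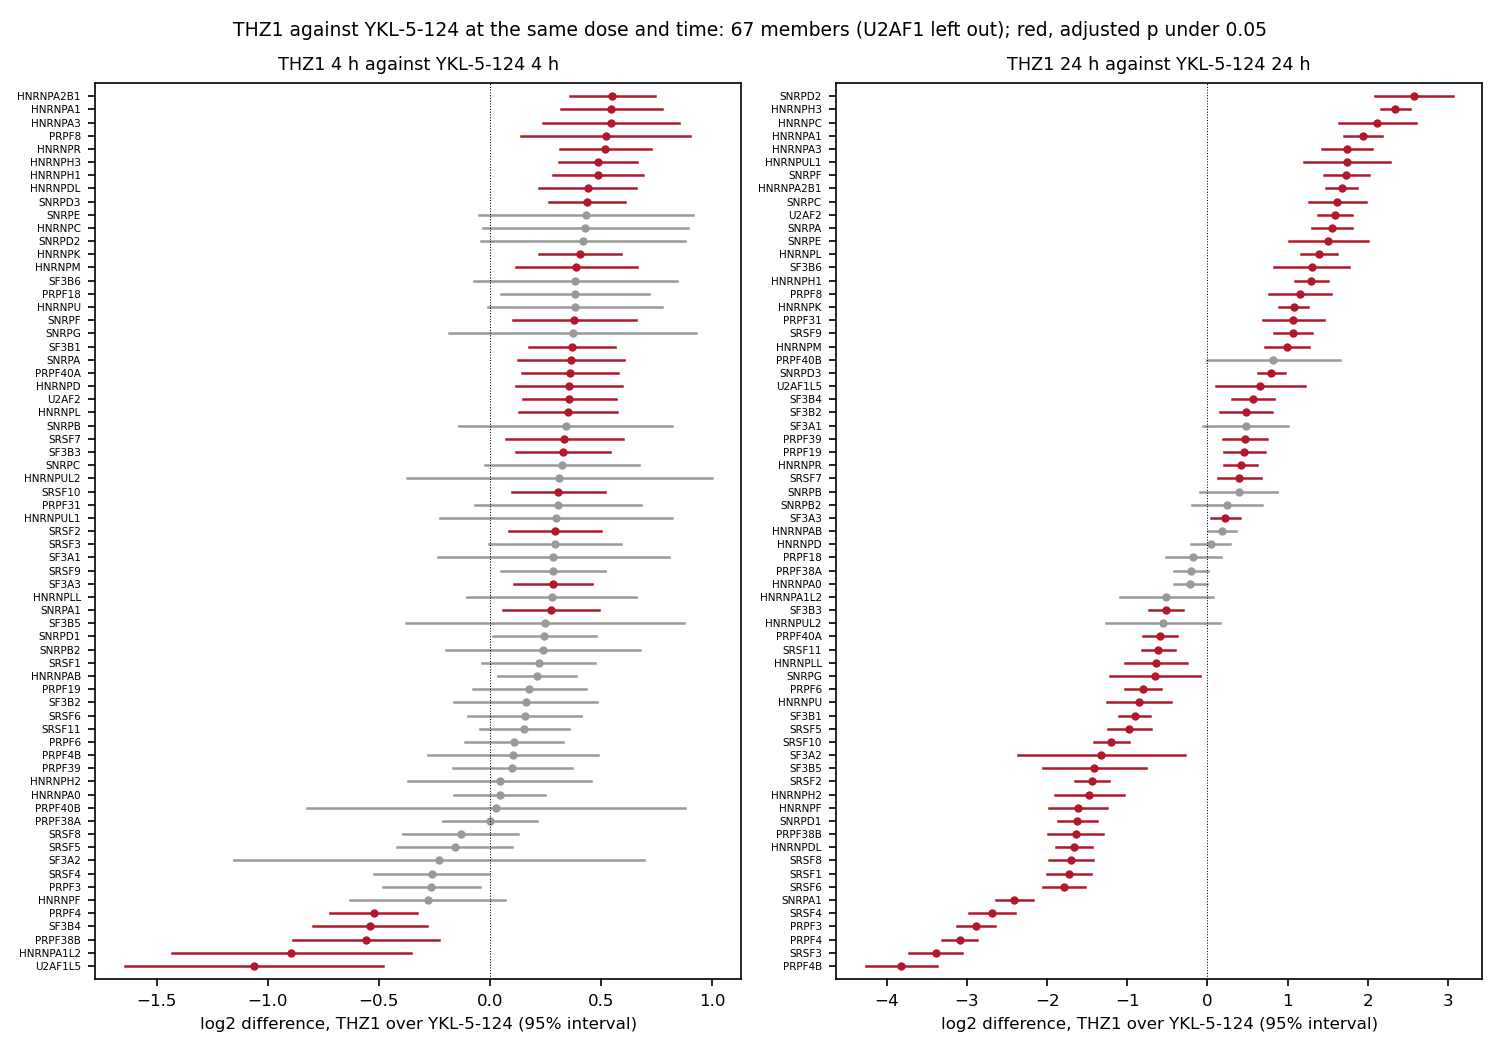
Log2 difference of THZ1 over YKL-5-124 (horizontal axis) at 4 h and 24 h for 67 splicing factor genes, with 95% intervals. Red marks genes with an adjusted p under 0.05; at 24 h values run from −3.82 for PRPF4B to 2.57 for SNRPD2 under TMM scaling, and U2AF1 is left out for its few counts.

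Between 24 h and 4 h of THZ1, 19 genes were higher and 33 lower at 24 h, where 31.4% and 35.7% of all genes were. SRSF3 (−3.88), PRPF4B (−2.94) and SNRPD1 (−2.62) fell most, and SNRPD2 (1.81), HNRNPC (1.29) and HNRNPUL1 (1.22) rose most among members with at least 5 CPM; HNRNPC was at 0.42 and HNRNPUL1 at 0.35 under library totals, and neither was then called. Under library totals 4 were higher and 50 lower. Between 24 h and 4 h of YKL-5-124, 8 were higher and 19 lower, where 9.22% and 11.9% of all genes were. PRPF3 (1.11), PRPF4B (0.99) and HNRNPLL (0.92) rose most, and SNRPA (−1.59), HNRNPA1 (−1.31) and SF3B3 (−1.17) fell most. Under library totals 13 were higher and 12 lower, and with a length covariate 32 were lower. The number that rose was 5 without YKL-5-124 24 h replicate 2. The interaction of compound and time, the test of whether the change with time differed between compounds, was higher for THZ1 in 24 genes and lower in 27, where 26.6% and 31.0% of all genes were. Under library totals these were 3 and 43.

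Sums per length were taken for each family but U2AF. SR protein genes summed to 259 ± 10.3 RPKM after 24 h of THZ1 and 476 ± 49.2 RPKM in DMSO, and hnRNP genes to 3238 ± 119.6 RPKM after THZ1 and 2011 ± 47.6 RPKM in DMSO (SD, n = 3 each). With 24 h of YKL-5-124 the hnRNP genes summed to 1481 ± 16.3 RPKM. SNRP genes summed to 2116 ± 311 RPKM after 24 h of THZ1 and 1171 ± 233 RPKM in DMSO, and PRPF genes to 262 ± 18.0 and 300.0 ± 5.55 RPKM in these groups. The SF3A and SF3B sums, 608 ± 37.2 RPKM after 24 h of THZ1 and 556 ± 87.9 RPKM in DMSO, overlapped. These sums use TMM scaling, and under library totals the higher hnRNP and SNRP sums turned. The hnRNP genes summed to 1761 ± 90.9 RPKM after 24 h of THZ1 and 2390.2 ± 79.2 RPKM in DMSO. The SNRP genes summed to 1148 ± 142 RPKM after THZ1 and 1383 ± 208 RPKM in DMSO, groups that overlapped. SR protein genes then summed to 141 ± 2.43 RPKM after THZ1 and 564 ± 29.1 RPKM in DMSO. For SF3A and SF3B genes library totals gave 330 ± 12.6 RPKM after THZ1 and 657 ± 71.2 RPKM in DMSO. Across genes, which are not independent, Spearman's rho of the THZ1 24 h change with exonic length was −0.08 over the 68 genes and −0.20 over all genes tested, and with genomic span 0.12 and −0.15. For YKL-5-124 24 h it was 0.06 and −0.02 with exonic length and 0.23 and −0.04 with span.

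Other genes of the splicing machinery, taken from 5 lists, moved as follows. Of 59 core spliceosome subunits and helicases outside the named series, 16 rose and 35 fell after 24 h of THZ1, with a median of −1.10, and 12 rose and 10 fell after 4 h of THZ1. The U5 snRNP gene SNRNP40 fell by 4.15 and LSM8 of the U6 ring by 3.64 on the log2 scale at 24 h, while LSM4 and LSM3 of the same ring rose by 2.49 and 1.72. At 4 h SNRNP35 fell by 2.04. Under library totals 4 rose and 45 fell at 24 h of THZ1, and 1 rose and 18 fell at 4 h. With 24 h of YKL-5-124, 1 rose and 13 fell, LSM7 (−0.83) and LSM6 (−0.81) farthest, and 7 rose and 5 fell under library totals. All 10 genes of the list for SR protein kinases, phosphatases and related regulators fell after 24 h of THZ1 (median −1.42, and 8 of 10 with DESeq2's size factors). After 4 h, 7 fell (median −0.73). They include PPP1R8 (−3.87 at 24 h) and PRPF4B, which is also a member, and at 4 h CLK4 (−1.48) and DYRK1A (−1.28). After 24 h of YKL-5-124, 1 of the 10 rose and 2 fell (median −0.05), and under library totals 2 rose and 1 fell. SRPK1, the main cytoplasmic SR protein kinase, then fell by 0.69 and CLK3 rose by 0.39. Of 47 other splicing regulators tested, 7 rose and 35 fell after 24 h of THZ1 (median −0.96), with DDX17 at −3.81, RBM5 at −3.49 and RALY at 1.75; under library totals 2 rose and 42 fell. The largest rise of the list was that of MATR3, at 54.0 ± 16.4 CPM after 24 h of THZ1 and 1.26 ± 0.748 CPM in DMSO (SD, n = 3 each; log2 5.40, adjusted p = 1.25e-09), but the count table holds overlapping entries of that name, between which reads can be split or lost. At 4 h of THZ1 10 rose and 7 fell, and under library totals 1 rose and 11 fell. At 24 h of YKL-5-124 5 rose and 11 fell, including THRAP3 (−1.07) and PTBP1 (−0.80), and under library totals 8 rose and 6 fell. Of 15 genes of snRNP assembly by the SMN complex and PRMT5, 4 rose and 10 fell after 24 h of THZ1 (median −1.59), with GEMIN6 at −4.53 and CLNS1A at 1.88, and 3 rose and 7 fell at 4 h, with DDX20 at −3.28 and GEMIN4 at −2.50. Under library totals 1 rose and 13 fell at 24 h (median −2.71), and 0 rose and 7 fell at 4 h. After 24 h of YKL-5-124, 1 of the 15 rose and 7 fell, and 1 rose and 5 fell under library totals. Of 6 exon junction genes, 1 rose and 1 fell after 24 h of THZ1, the fall being that of EIF4A3 (−3.41), which rose by 0.51 after 24 h of YKL-5-124; under library totals 0 rose and 5 fell after 24 h of THZ1. The background for each comparison is the share of all genes given above, and these lists were drawn up with earlier results of these data known.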

How the data were processed

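Total RNA of 15 PATU-8988T libraries was sequenced. The deposited table holds unnormalized counts, 1 column for each library and 1 line for each Ensembl gene. The submitters' processing notes name featureCounts 1.5.0-p3, STAR 2.6.1d, the GRCh38 build and DESeq2 1.24.0, without their roles. No source used here gives the strand setting or the handling of reads with several matches, so reads of overlapping genes on opposite strands cannot be told apart. Members and lists were chosen with earlier results of these data known. The filter filterByExpr (edgeR 4.0.16, R 4.3.3; minimum count 10, minimum total 15) left 14461 genes with 99.9% of counts. Calls rest on edgeR's quasi-likelihood test on all 15 libraries with group as the factor, TMM scaling and Benjamini-Hochberg adjustment over all genes, with a threshold of 0.05. The test was also run on simulated data in which a small part of the genes changed, up and down in equal numbers. That setting lacked the shift in make-up seen after 24 h of THZ1, so it cannot decide whether calls there hold. DESeq2 1.42.0, DESeq2's size factors in edgeR, library totals, no filter, a replicate block, a length covariate and leaving out each library were alternatives. RPKM divides CPM by exonic length in kilobases from the table. Named genes were the largest rise and fall of each family per comparison with DMSO at a mean of at least 5 CPM, the 3 largest on each side elsewhere, and SRSF1, SRSF2, SRSF3, SF3B1, U2AF1, U2AF2, HNRNPA1, PRPF8 and SNRPB; others stand inside the account of their family. From the lists, up to 2 called genes in each direction per comparison with DMSO qualified. In every group each pair of libraries differed beyond counting noise (chi-square over its degrees of freedom 4.19 to 77.0). In DMSO, replicate 2 stood at 57.1 and 50.9 from replicates 1 and 3, which stood at 4.55 from each other. In YKL-5-124 24 h, replicate 3 stood at 52.5 and 38.1 from replicates 1 and 2, which stood at 4.19 from each other. In the remaining groups replicate 1 stood farthest from its partners. Pseudogenes of the named series were not members: 69 of 183 had counts, 0.256% of the counts of members and pseudogenes together.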

Additional observations from a re-analysis of the deposited data

Results flagged for a closer look

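The change of 13 named genes with time differed between the compounds, by the interaction of compound and time in edgeR's quasi-likelihood test. The 2 counts of members called in that test were flagged with them and were not tested themselves. A positive value means that the log2 difference of THZ1 over YKL-5-124 was higher at 24 h than at 4 h. The value was 2.15 for SNRPD2, 1.86 for HNRNPH3, 1.69 for HNRNPC, 1.40 for HNRNPA1 and 1.23 for U2AF2, both no longer called under library totals, at 0.36 and 0.20. For PRPF8 it was 0.63, a call that ended on leaving out single libraries and reversed under library totals. It was 2.08 for U2AF1, which rests on few counts and was not called under library totals or with no filter on low counts. It was −3.92 for PRPF4B, −3.68 for SRSF3, −2.68 for SNRPA1, −1.95 for SRSF1, −1.73 for SRSF2 and −1.28 for SF3B1. In all, 24 splicing factor genes had a positive and 27 a negative interaction, where 26.6% and 31.0% of all genes did. Under library totals these counts were 3 and 43, with HNRNPC, HNRNPH3 and SNRPD2 the 3 positive ones called under every scaling. Groups of 3 libraries are too small for a test of single libraries that stand apart. By the chi-square values given above, 1 library of each group differed from its partners more than these did from each other, in DMSO replicate 2.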

How the results depend on the processing

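Under library totals the genes called higher and lower were 3 and 12 between compounds at 4 h, 10 and 49 between compounds at 24 h, 4 and 50 between the THZ1 times, 13 and 12 between the YKL-5-124 times and 3 and 43 for the interaction; against DMSO, 3 rose with THZ1 4 h, 7 rose and 51 fell with THZ1 24 h, and 10 rose with YKL-5-124 24 h. With a length slope covariate 39 rose with THZ1 4 h, 11 fell with YKL-5-124 4 h, 9 rose with YKL-5-124 24 h, 45 were higher with THZ1 than with YKL-5-124 at 4 h, and 32 fell between the YKL-5-124 times. For YKL-5-124 4 h, 4 fell with DESeq2 and 5 with no filter on low counts. The cause of these moves was not tested. Without ribosomal protein and mitochondrial counts, the difference in share from DMSO was 0.173 points at 4 h of THZ1, −0.502 at its 24 h and −0.383 at 24 h of YKL-5-124, beside 0.0818, −0.738 and −0.281 with them.

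Leaving out each library in turn gave 17 to 22 higher and 11 to 13 lower for THZ1 4 h, 22 to 24 and 29 to 32 for THZ1 24 h, 0 to 0 and 0 to 4 with 4 h of YKL-5-124, and 2 to 5 and 17 to 23 with its 24 h, the 2 coming without YKL-5-124 24 h replicate 3, DMSO replicate 1 or DMSO replicate 3. Between compounds it gave 13 to 26 and 5 to 8 at 4 h and 28 to 30 and 25 to 28 at 24 h, between times 17 to 20 and 31 to 33 for THZ1 and 5 to 10 and 14 to 18 for YKL-5-124, and for the interaction 22 to 25 and 25 to 27. Shares differed from DMSO by 0.0533 to 0.124 points for THZ1 4 h, −0.753 to −0.721 for THZ1 24 h, −0.116 to −0.0840 with 4 h of YKL-5-124 and −0.295 to −0.264 with its 24 h.

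Log2 values of the other sign under library totals were −0.47 for HNRNPA1 and −0.93 for SNRPB (THZ1 24 h against DMSO), −0.78 for HNRNPA1 (THZ1 times), −0.13 for PRPF8 and −0.89 for SNRPB (compounds at 24 h), −0.19 for SRSF1 and −0.13 for SRSF2 (THZ1 4 h against DMSO), −0.025 for SRSF1 (compounds at 4 h), and −0.41 for PRPF8 and −0.98 for SNRPB (interaction). No filter gave −0.015 for HNRNPA1 (THZ1 times) and −0.052 for SNRPB (interaction), and both DESeq2 and its size factors in edgeR gave 0.11 for SNRPB (THZ1 times). Values near 0 also crossed 0 on leaving out 1 library. They ran over −0.25 to 0.10 for SNRPB (THZ1 times), −0.0040 to 0.12 for SRSF1 (THZ1 4 h), −0.22 to 0.47 for U2AF1 (YKL-5-124 24 h) and −0.29 to 0.0016 for SNRPB (YKL-5-124 times). For YKL-5-124 4 h they ran over −0.057 to 0.0070 for SF3B1, −0.21 to 0.086 for SNRPB and −0.53 to 0.21 for U2AF1, and for the interaction over −0.13 to 0.28 for SNRPB.

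With the replicate number as a block, higher and lower calls were 27 and 13 for THZ1 4 h, 24 and 33 for THZ1 24 h, 0 and 3 with 4 h of YKL-5-124, 5 and 24 with its 24 h, 29 and 7 and 32 and 28 between compounds at 4 h and 24 h, 19 and 33 and 9 and 20 between times of THZ1 and YKL-5-124, and 24 and 28 for the interaction. Only 18 of 30 same-numbered pairs correlated above 0.1 (range −0.39 to 0.45) and 8 of 15 libraries correlated best with their own number, with a median of 0.177 for same-numbered and −0.119 for differently numbered pairs. Since not every pair passed 0.1, the numbers were not taken to pair the samples. Depth limits U2AF1 most, with 159 counts in all libraries.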
